A study of Mus musculus with 24 samples.

Results

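The p53 and GADD45 stress-response genes of the dorsal root ganglion (DRG) were described here after a sciatic nerve lesion. The 10 genes *Gadd45a*, *Gadd45b*, *Gadd45g*, *Cdkn1a*, *Mdm2*, *Ccng1*, *Trp53*, *Trp53inp1*, *Plk2* and *Btg2* were chosen by name, with earlier results of these data known. They were carried by 17 of the 41174 probes on the array and are 10 of its 27398 gene names. Where a gene had several probes, the one with the highest mean intensity stood for the gene. All 17 probes were well above background in all 24 samples.

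RNA came from L4 and L5 DRGs of adult male *Nfil3* knockout (KO) mice and wildtype (WT) littermates on a C57BL/6J background. The KO was a germline deletion, obtained by crossing floxed mice with mice that express Cre from the human CMV promoter, so it was present in all cell types. In both genotypes the sciatic nerve was transected and its ends sutured together, and DRGs were taken at day 2 or day 5 after the lesion. Control DRGs came from the non-injured side, and all mice received the analgesic Temgesic. The samples formed 6 groups of 4 (WT control, WT day 2, WT day 5, KO control, KO day 2 and KO day 5), on 12 Agilent arrays of 3 slides, with 2 samples of each group labelled with Cy3 and 2 with Cy5. The slides were not balanced over the groups. WT day 2 had no sample on slide 1, WT day 5 none on slide 2 and KO day 5 none on slide 3. The main tests had no term for slide, so differences between groups can include differences between slides. Although the labels speak of DRG neurons, the methods describe whole ganglia, which also hold satellite glia, Schwann cells, macrophages and vessels. The labels do not say whether control and lesioned DRGs came from the same animals, so p-values measure the spread between these samples only. Values are normalized log2 intensities, and differences between groups are on the log2 scale unless a fold is given. An adjusted p is limma's p after Benjamini-Hochberg adjustment over all probes, and a gene is said to rise or fall where it was below 0.05.

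p53, encoded by *Trp53*, is a transcription factor that is controlled mainly through the stability of its protein. In unstressed cells MDM2 marks p53 for degradation, and *Mdm2* is itself a p53 target, which closes a feedback loop. Targets of p53 slow the cell cycle (*Cdkn1a*, which encodes the cyclin-dependent kinase inhibitor p21, *Btg2* and *Ccng1*) or promote cell death and autophagy (*Trp53inp1*), and many of them also respond to stress without p53. The GADD45 proteins are small stress-induced proteins that bind the kinase MAP3K4, upstream of the p38 and JNK kinases, as well as PCNA and CDK1, and that take part in active DNA demethylation. *Gadd45a* is known as a gene that sensory neurons induce after axotomy.

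The lesion and the genotype could be read from marker genes of the same arrays. *Nfil3* ranged from 8.44 to 11.09 in the WT samples and from 2.82 to 7.59 in the KO samples. The highest KO value belonged to KO control replicate 4, in which *Nfil3* was well above background, whereas it was between 2.94 and 4.37 and not well above background in the other 3 KO controls. *Nfil3* was also well above background in KO day 2 replicates 1 and 4 (5.3 and 6.23) and in KO day 5 replicates 1 and 3 (5.81 and 5.66). Each of these shared an array with a lesioned WT sample. KO control replicate 4 shared one with KO day 5 replicate 2 (*Nfil3* 3.4, not well above background). The source of the *Nfil3* signal in KO was not tested. KO control replicate 4 also carries a day 5 label beside its control title. Its *Gadd45a* value of 9.39, *Gadd45g* value of 11.92 and *Cdkn1a* value of 10.39 were far below those of the KO day 5 samples. The injury gene *Atf3* ranged from 12.94 to 14.10 in the lesioned samples and from 7.25 to 9.98 in the controls. The 4 controls that shared an array with a lesioned sample had *Atf3* values between 9.04 and 9.98, against 7.25 to 7.69 in the other 4. *Sprr1a*, another injury gene, was 8.15 to 11.68 in these controls (11.43 in KO control replicate 4) and 5.48 to 6.12 in the other 4. In the lesioned samples it ranged from 12.6 to 15.81. The part of the shared array in these values was not tested. All 8 neuron markers and all 8 macrophage markers were well above background in every sample.

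The promoter sequences of 9 of the 10 genes were found in RefSeq (GRCm38.p6), and those of 6 genes are shown because they set the GADD45 paralogs side by side and hold the motif matches to which the results below refer. Each is the 250 bases upstream of the annotated start, 5′ to 3′ on the strand of the gene. Capitals mark motif matches on either strand. The motifs searched were the cAMP response element (CRE, with the letters TGACGTCA), the AP-1 element (with the letters TGANTCA), the element bound by NFIL3 (with the letters TTACGTAA), the TATA box (with the letters TATAAA), and the p53 decamer, which occurs in pairs in a p53 binding site. The first 5 letters of the CRE, TGACG, were also searched on their own and lie within every CRE. The windows lie at chr6:67037408-67037657 on the minus strand, chr10:80929841-80930090 on the plus strand, chr13:51846425-51846674 on the plus strand, chr17:29090729-29090978 on the plus strand (the upstream one of 2 starts), chr13:110394794-110395043 on the plus strand and chr1:134079156-134079405 on the minus strand.
Gadd45a: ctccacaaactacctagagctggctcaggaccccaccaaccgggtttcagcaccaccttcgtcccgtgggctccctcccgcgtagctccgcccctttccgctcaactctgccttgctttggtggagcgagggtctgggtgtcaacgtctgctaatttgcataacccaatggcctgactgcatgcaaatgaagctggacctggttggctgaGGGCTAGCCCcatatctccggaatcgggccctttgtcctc
Gadd45b: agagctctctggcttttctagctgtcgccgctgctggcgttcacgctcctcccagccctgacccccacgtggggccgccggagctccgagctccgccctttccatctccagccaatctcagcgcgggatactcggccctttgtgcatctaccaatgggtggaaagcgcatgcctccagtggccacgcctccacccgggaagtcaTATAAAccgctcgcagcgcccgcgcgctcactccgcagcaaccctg
Gadd45g: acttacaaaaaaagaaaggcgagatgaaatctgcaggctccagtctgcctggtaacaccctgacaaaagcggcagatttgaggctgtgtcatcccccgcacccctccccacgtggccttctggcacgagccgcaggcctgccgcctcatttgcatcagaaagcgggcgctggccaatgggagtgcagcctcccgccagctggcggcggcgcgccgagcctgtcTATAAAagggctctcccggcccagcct
Cdkn1a: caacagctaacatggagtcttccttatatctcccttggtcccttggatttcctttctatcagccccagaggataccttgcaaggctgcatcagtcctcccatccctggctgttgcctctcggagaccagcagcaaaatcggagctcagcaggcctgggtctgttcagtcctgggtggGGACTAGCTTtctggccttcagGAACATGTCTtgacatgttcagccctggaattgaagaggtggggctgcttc
Plk2: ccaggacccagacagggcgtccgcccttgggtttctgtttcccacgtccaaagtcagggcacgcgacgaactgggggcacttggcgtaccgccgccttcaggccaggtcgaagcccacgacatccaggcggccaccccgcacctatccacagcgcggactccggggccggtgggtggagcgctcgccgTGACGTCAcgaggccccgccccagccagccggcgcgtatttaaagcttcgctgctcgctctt
Btg2: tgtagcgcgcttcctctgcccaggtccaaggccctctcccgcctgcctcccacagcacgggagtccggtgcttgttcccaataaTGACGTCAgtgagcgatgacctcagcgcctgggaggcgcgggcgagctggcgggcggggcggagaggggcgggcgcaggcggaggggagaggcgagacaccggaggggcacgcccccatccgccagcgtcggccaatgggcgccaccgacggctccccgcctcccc

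The GADD45 windows differed in what they held. *Gadd45a* had a p53 decamer match (GGGCTAGCCC, starting 40 bases before the start) and no TATAAA, whereas *Gadd45b* and *Gadd45g* had a TATAAA 46 and 27 bases before the start and no p53 decamer match. The upstream *Cdkn1a* start had p53 decamer matches at 73 (GGACTAGCTT) and 51 bases (GAACATGTCT), and the downstream start had none. *Mdm2*, *Ccng1* and *Trp53* each had 1 such match, so 5 of the 9 genes held the p53 decamer, which was present in 7.13% of all 32851 promoter windows of this length. A full CRE was present only in *Plk2*, 62 bases before the start, and in *Btg2*, at 166 bases, and in 1.55% of all windows. TGACG was held by 17.8%, AP-1 by 6.75%, TATAAA by 12.4% and the NFIL3 motif by 0.113% of all windows, and the NFIL3 and AP-1 letters were in none of the 9 genes' windows. A match is a description of the letters and not a site of binding.

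*Gadd45a*, *Gadd45g* and *Cdkn1a* were the 3 genes that rose most, by 4.02-fold or more, at day 2 and at day 5 in both genotypes. *Btg2* rose by less in the same 4 comparisons. *Ccng1* rose at day 5 only, *Trp53inp1* rose in all comparisons but KO day 2, and *Mdm2* and *Plk2* passed the test in 1 WT comparison each. *Gadd45b* and *Trp53* passed in none. In WT, 5 of the 10 genes rose and 1 fell at day 2, and 7 rose and none fell at day 5, while 5.23% of all genes rose and 5.77% fell at day 2 and 6.41% rose and 7.45% fell at day 5. In KO, 4 rose at day 2 and 6 at day 5, and none fell, while 5.5% and 6.06% of all genes rose and 6.27% and 6.63% fell. Of the genes well above background in every sample, 7.96% and 9.64% rose in WT and 8.37% and 9.06% in KO, and 9.95% to 13.1% fell. The 10 genes were chosen with earlier results of these data known, so their excess over these shares is no test of the set. The median log2 difference of the 10 genes was 0.27 and 0.5 in WT and 0.21 and 0.5 in KO, and that of all genes lay between -0.03 and -0.01. An F test for the lesion over both genotypes called 8 of the 10 genes, against 26.2% of all genes and 41.4% of the 14555 genes that were well above background in every sample. Without KO control replicate 4 the F test called 6 of the 10 genes, and the counts in KO were again 4 and 6. Taken as KO day 5, as its day label says, it lowered the counts to 4 and 6 in WT and left 4 and 4 in KO, with *Ccng1* (0.36, adjusted p = 0.161) and *Trp53inp1* (0.38, adjusted p = 0.0735) no longer called at KO day 5. The lesioned and control samples did not overlap for 5 and 6 of the 10 genes in WT at day 2 and day 5 and for 4 and 6 in KO, against 16.5%, 19.8%, 14.3% and 20.2% of all genes. Among genes well above background in every sample these shares were 25.5%, 31.1%, 21% and 31.2%. In whole ganglia a change in the number of cells of a type and a change of RNA per cell cannot be told apart.

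**Figure D1:**
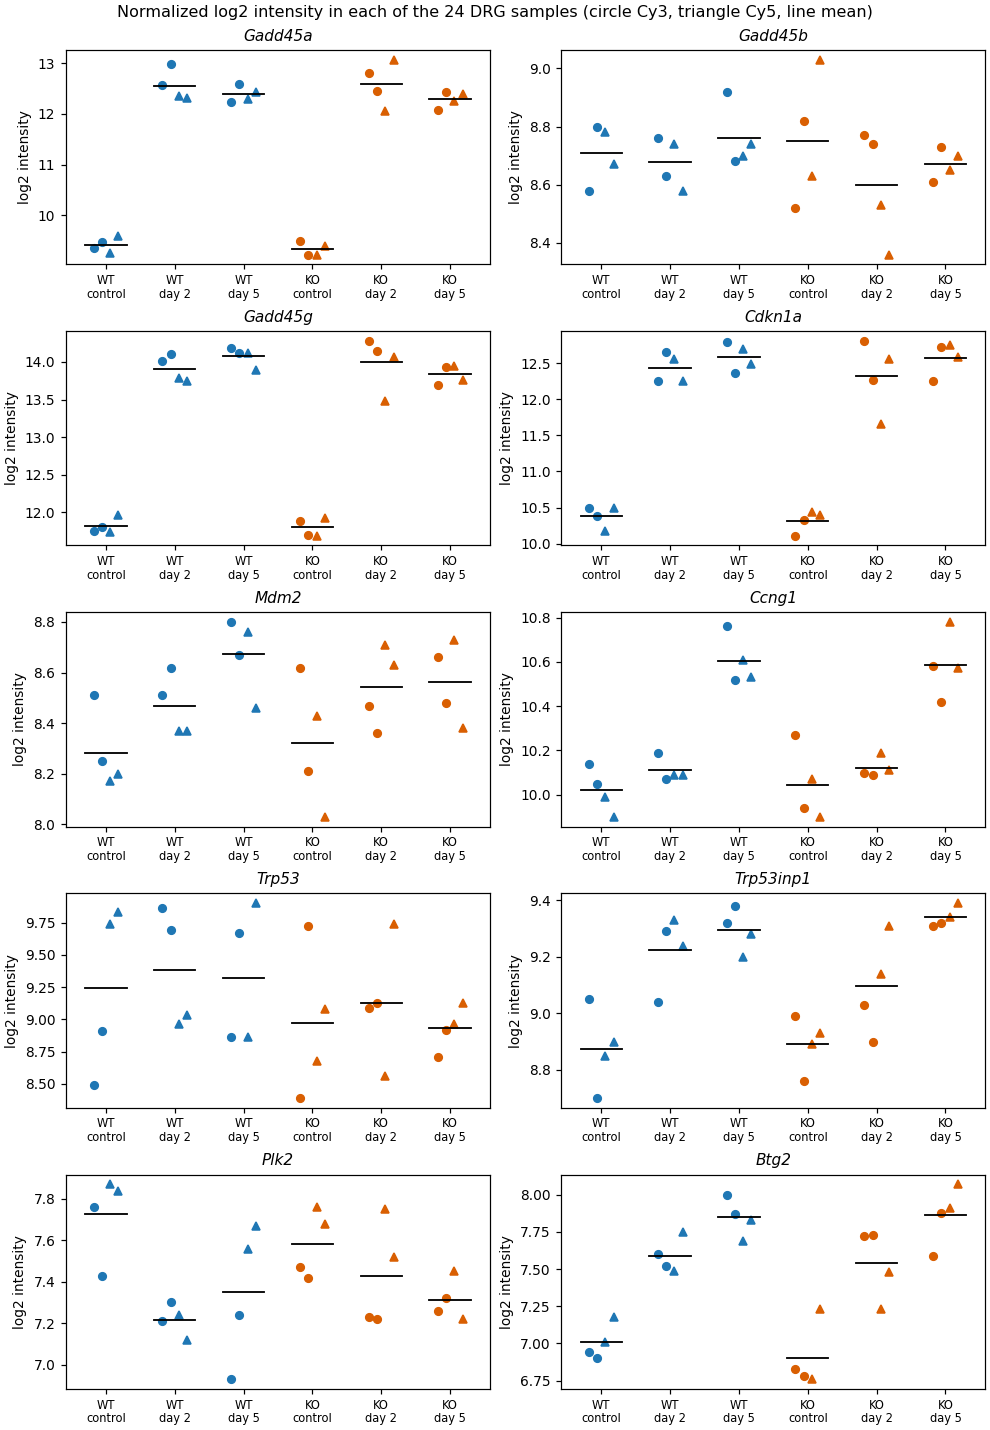
Normalized log2 intensity (y axis, scaled per gene) of the 10 genes in each sample of the 6 groups (x axis), with circles for Cy3, triangles for Cy5 and a line at the mean of 4 samples. *Gadd45a*, *Gadd45g* and *Cdkn1a* separate all lesioned samples from all controls, whereas *Gadd45b* and *Trp53* do not.

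*Gadd45a* is the GADD45 gene best known as a p53 target, and its probe lies at chr6:66985376-66985435 (mm9). Its log2 intensities were 9.36, 9.48, 9.25 and 9.60 in WT control, 12.57, 12.99, 12.36 and 12.32 in WT day 2, and 12.24, 12.59, 12.29 and 12.43 in WT day 5. In KO they were 9.49, 9.23, 9.23 and 9.39 in control, 12.80, 12.45, 12.05 and 13.07 at day 2, and 12.08, 12.44, 12.26 and 12.39 at day 5. Every lesioned sample was above every control, while the 4 lesioned groups overlapped. WT day 2 was 8.78-fold above control (log2 difference 3.13, SE 0.18, adjusted p = 3.04e-10), and WT day 5 was 7.8-fold above control (2.96, SE 0.18, adjusted p = 4.64e-10). KO day 2 was 9.55-fold (3.26, SE 0.18, adjusted p = 1.66e-10) and KO day 5 7.77-fold above control (2.96, SE 0.18, adjusted p = 5.05e-10). Day 5 minus day 2 was -0.17 in WT (95% confidence interval -0.54 to 0.2) and -0.3 in KO (-0.67 to 0.07), and neither passed the test.

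*Gadd45g*, a GADD45 gene studied in development and in immune cells, rose with *Gadd45a*. Its log2 intensities were 11.75, 11.80, 11.74 and 11.96 in WT control, 14.01, 14.10, 13.79 and 13.74 in WT day 2, and 14.19, 14.12, 14.12 and 13.89 in WT day 5. The KO values were 11.89, 11.70, 11.69 and 11.92 in control, 14.28, 14.14, 13.48 and 14.07 at day 2, and 13.69, 13.93, 13.95 and 13.76 at day 5. Again no lesioned sample overlapped with a control. The difference from control was 2.1 (4.28-fold, SE 0.14, adjusted p = 2.19e-09) at WT day 2 and 2.27 (4.82-fold, SE 0.14, adjusted p = 5.17e-10) at WT day 5. In KO it was 2.19 (4.57-fold, adjusted p = 1.15e-09) and 2.03 (4.09-fold, adjusted p = 2.92e-09).

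In controls that shared an array with a lesioned sample, *Gadd45a* was 9.48 and 9.60 in WT and 9.39 and 9.49 in KO, against 9.25 to 9.36 and 9.23 in the other controls. *Gadd45g* was 11.80 and 11.96 in WT and 11.89 and 11.92 in KO, against 11.74 to 11.75 and 11.69 to 11.70. In both genotypes these controls were thus the higher ones for both genes. For *Cdkn1a* they did not separate, with 10.38 and 10.49 against 10.18 and 10.49 in WT. In KO they were 10.11 and 10.39 against 10.33 and 10.44. The part of the shared array in these values was not tested. Without the controls that shared an array with a lesioned sample, the *Gadd45a* differences were 3.25 and 3.08 in WT and 3.36 and 3.06 in KO. Those of *Gadd45g* were 2.17, 2.34, 2.3 and 2.14.

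*Gadd45b*, the paralog that is induced by TGF-beta and by neuronal activity, gave no such change. Its log2 intensities were 8.58, 8.80, 8.78 and 8.67 in WT control, 8.76, 8.63, 8.74 and 8.58 in WT day 2, and 8.92, 8.68, 8.70 and 8.74 in WT day 5. In KO they ranged from 8.52 to 9.03 in control, from 8.36 to 8.77 at day 2 and from 8.61 to 8.73 at day 5. All 6 groups overlapped. The differences from control were -0.03 (95% confidence interval -0.25 to 0.2) and 0.05 (-0.17 to 0.28) in WT and -0.15 (-0.38 to 0.07) and -0.08 (-0.3 to 0.15) in KO, so that a change of the size seen for the other GADD45 genes lay outside each interval. A second *Gadd45b* probe, 7.52 to 8.49 over all samples, passed in no comparison either. It differed by slide, with 7.52 to 7.92 on slide 1, 7.72 to 8.07 on slide 2 and 8.09 to 8.49 on slide 3, which limits what it adds.

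*Cdkn1a* (p21) rose in all 4 comparisons. Its probe at chr17:29237377-29237436 (mm9) was spotted 10 times on each array, and the spots of a sample had a median SD of 0.19 before they were averaged. The log2 intensities were 10.49, 10.38, 10.18 and 10.49 in WT control, 12.25, 12.65, 12.56 and 12.26 in WT day 2, and 12.80, 12.36, 12.69 and 12.49 in WT day 5. In KO, the samples gave 10.11, 10.33, 10.44 and 10.39 in control, 12.81, 12.27, 11.66 and 12.56 at day 2, and 12.26, 12.72, 12.75 and 12.58 at day 5. All lesioned samples lay above all controls, and KO day 2 replicate 3 was the lowest of them. The difference from control was 2.05 (4.13-fold, SE 0.19, adjusted p = 2.29e-07) and 2.2 (4.6-fold, SE 0.19, adjusted p = 6e-08) in WT, and 2.01 (4.02-fold, adjusted p = 3.32e-07) and 2.26 (4.79-fold, adjusted p = 4.27e-08) in KO. Within single slides that held both groups, lesion minus control ranged from 1.39 to 2.26 for *Cdkn1a*, from 2.69 to 3.84 for *Gadd45a* and from 1.69 to 2.41 for *Gadd45g*.

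*Btg2*, an antiproliferative gene that is induced early by many stimuli, rose in all 4 comparisons by less than the 3 genes above. The log2 intensities of its brightest probe were 6.94, 6.90, 7.01 and 7.18 in WT control, 7.60, 7.52, 7.49 and 7.75 in WT day 2, and 8, 7.87, 7.69 and 7.83 in WT day 5. The KO samples gave 6.83, 6.78, 6.76 and 7.23 in control, 7.72, 7.73, 7.23 and 7.48 at day 2, and 7.59, 7.88, 7.91 and 8.07 at day 5. No lesioned group overlapped with its control, although in KO the highest control, replicate 4, and the lowest day 2 sample, replicate 3, were equal to 2 decimals (7.23). The difference was 0.58 (SE 0.13, adjusted p = 0.00613) and 0.84 (SE 0.13, adjusted p = 0.000154) in WT, and 0.64 (SE 0.13, adjusted p = 0.00266) and 0.96 (SE 0.13, adjusted p = 3.51e-05) in KO. The other 2 *Btg2* probes also passed in all 4 comparisons, with differences between 0.64 and 1.16.

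*Ccng1*, which encodes cyclin G1, a p53 target that binds a subunit of the phosphatase PP2A and acts on MDM2, rose at day 5 and not at day 2. Its log2 intensities were 10.14, 10.05, 9.99 and 9.90 in WT control, 10.19, 10.07, 10.09 and 10.09 in WT day 2, and 10.76, 10.52, 10.61 and 10.53 in WT day 5. In KO they were 10.27, 9.94, 10.07 and 9.90 in control, 10.10, 10.09, 10.19 and 10.11 at day 2, and 10.58, 10.42, 10.78 and 10.57 at day 5. The day 5 samples of both genotypes lay above all day 2 and control samples of their genotype. Day 2 minus control was 0.09 (95% confidence interval -0.1 to 0.28) in WT and 0.08 (-0.11 to 0.27) in KO, and day 5 minus control was 0.59 (SE 0.09, adjusted p = 0.000155) and 0.54 (SE 0.09, adjusted p = 0.000388). Tested directly, day 5 exceeded day 2 by 0.5 in WT (SE 0.09, adjusted p = 0.0113) and by 0.47 in KO (SE 0.09, adjusted p = 0.0145), and *Ccng1* was the only one of the 10 genes that differed between the time points, against 0.708% of all genes in WT and 0.975% in KO.

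The dimmer *Ccng1* probe, chr11:40564413-40564472 (mm9), had another time course. It was 0.33 above control at day 2 in each genotype (adjusted p = 0.136 in WT and 0.138 in KO) and 0.47 and 0.56 above control at day 5 (adjusted p = 0.0228 and 0.0082). With both probes averaged, the WT difference between day 5 and day 2 was 0.32 (adjusted p = 0.0847), while the KO call was kept. With the brighter probe, leaving out WT day 5 replicate 1 brought the WT difference to 0.45 (adjusted p = 0.0616). Leaving out KO day 5 replicate 3 brought the KO difference to 0.4 (adjusted p = 0.0729). The call was kept in 37 of 42 alternatives in WT and in 38 of 42 in KO. Slide as a block was among these (adjusted p = 0.0115 and 0.00405 by limma).

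Markers of other cell types also changed over these days. Of the 8 macrophage markers, 2 rose at day 2 and 8 at day 5 in each genotype, and their summed linear intensity ranged from 8360 to 13800 in WT control, from 10500 to 22800 in WT day 2 and from 27400 to 36700 in WT day 5 (in KO 9590 to 12800, 6930 to 17200 and 24700 to 33500). Of 6 proliferation markers, 5 rose at WT day 2, 2 at WT day 5, 2 at KO day 2 and 5 at KO day 5. All 7 injured-neuron markers rose in all 4 comparisons, and of 8 neuron markers 3 and 4 fell in WT and 4 and 5 in KO, while 1, *Tubb3*, rose at day 5 in both genotypes (0.44 and 0.42, adjusted p = 0.000237 and 0.000423). Of 5 satellite glia markers 2 rose and 1 fell at day 2 and 1 rose at day 5 in each genotype. The injured-neuron markers had a median summed linear intensity of 74400 at WT day 2 and 148000 at WT day 5 (in KO 72100 and 134000). Both the macrophage and the injured-neuron sums were thus higher at day 5 than at day 2, as was *Ccng1* with its brighter probe. The part of any cell type in the rise of *Ccng1* was not tested.

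**Figure D2:**
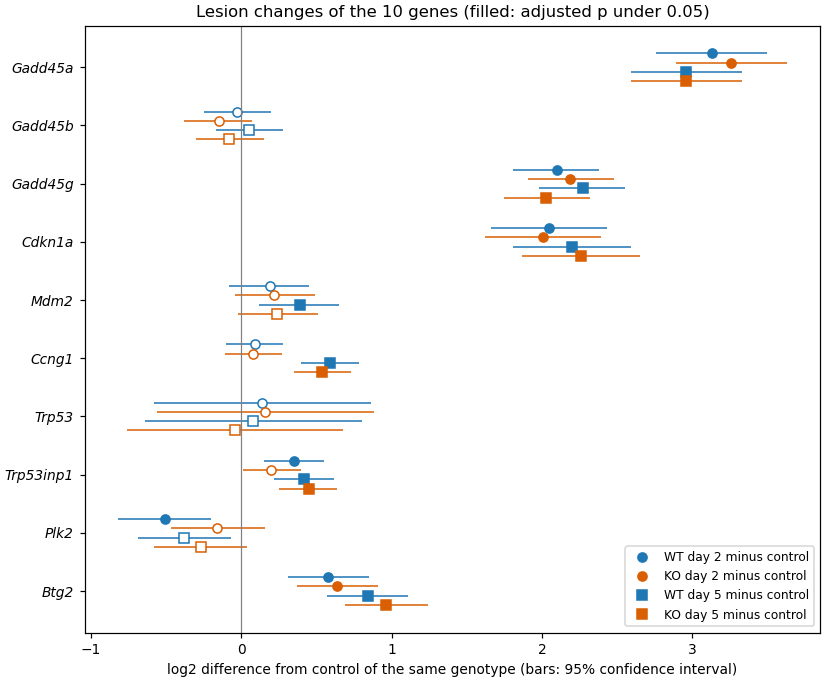
Log2 difference from the control of the same genotype (x axis) for the 10 genes, with 95% confidence intervals (bars), circles for day 2, squares for day 5, blue for WT and orange for KO, filled where the adjusted p was under 0.05. *Gadd45a*, *Gadd45g* and *Cdkn1a* lie between 2.01 and 3.26, *Ccng1* is filled at day 5 only, and *Plk2* at WT day 2 is the one filled point below 0.

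*Trp53inp1*, which promotes p53-dependent cell death and autophagy, rose in 3 of the 4 comparisons. Its log2 intensities were 9.05, 8.70, 8.85 and 8.90 in WT control, 9.04, 9.29, 9.33 and 9.24 in WT day 2, and 9.32, 9.38, 9.20 and 9.28 in WT day 5. The KO values were 8.99, 8.76, 8.89 and 8.93 in control, 9.03, 8.90, 9.14 and 9.31 at day 2, and 9.31, 9.32, 9.34 and 9.39 at day 5. Day 5 lay above control in every sample of both genotypes, while the day 2 samples overlapped with their controls. The difference was 0.35 (SE 0.09, adjusted p = 0.0208) and 0.42 (SE 0.09, adjusted p = 0.00439) in WT, and 0.2 (SE 0.09, adjusted p = 0.191) and 0.45 (SE 0.09, adjusted p = 0.00316) in KO. The KO day 2 interval, 0.01 to 0.4, contained the WT value. The dimmer probe gave 0.37, 0.35, 0.19 and 0.56 in the same order and passed at KO day 5 alone (adjusted p = 0.0124), and without the 4 controls that shared an array with a lesioned sample the WT values were 0.27 (adjusted p = 0.234) and 0.35 (adjusted p = 0.101).

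*Mdm2*, the negative regulator of p53, was 0.19 to 0.39 above control on the log2 scale with its brighter probe, which passed the test at WT day 5 alone. The log2 intensities of its brighter probe, chr10:117126278-117126337 (mm9), were 8.51, 8.25, 8.17 and 8.20 in WT control, 8.51, 8.62, 8.37 and 8.37 in WT day 2, and 8.80, 8.67, 8.76 and 8.46 in WT day 5. In KO, the samples gave 8.62, 8.21, 8.43 and 8.03 in control, 8.47, 8.36, 8.71 and 8.63 at day 2, and 8.66, 8.48, 8.73 and 8.38 at day 5. All lesioned groups overlapped with their controls. The difference was 0.19 (adjusted p = 0.445) and 0.39 (adjusted p = 0.0483) in WT and 0.22 (adjusted p = 0.311) and 0.24 (adjusted p = 0.28) in KO, with an SE of 0.13. The WT day 5 call was lost under many alternatives, for example 0.35 (adjusted p = 0.137) without WT day 5 replicate 1 and 0.33 (adjusted p = 0.219) without the 4 controls on an array with a lesioned sample.

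The other *Mdm2* probe, chr10:117129725-117129784 (mm9), was spotted 10 times per array. It was 6.76, 7.07, 6.75 and 6.84 in WT control, 7.14, 7.20, 7.23 and 7.47 in WT day 2, and 7.36, 7.08, 7.26 and 7.09 in WT day 5, and it was 6.60 to 7.06 in KO control, 7.07 to 7.51 in KO day 2 and 7.19 to 7.36 in KO day 5. No lesioned group overlapped with its control. The difference was 0.4 (adjusted p = 0.0283) and 0.35 (adjusted p = 0.0543) in WT and 0.38 (adjusted p = 0.038) and 0.37 (adjusted p = 0.0417) in KO, with an SE of 0.12. With slide as a block in the model, the brighter probe passed in all 4 comparisons, with 0.27, 0.3, 0.31 and 0.27 and adjusted p of 0.0264, 0.00951, 0.0121 and 0.022.

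*Plk2*, a polo-like kinase that acts at centrosomes and, in neurons, at synapses, was the one gene of the 10 that fell. Its log2 intensities were 7.76, 7.43, 7.87 and 7.84 in WT control, 7.21, 7.30, 7.24 and 7.12 in WT day 2, and 6.93, 7.24, 7.56 and 7.67 in WT day 5. The KO samples gave 7.47, 7.42, 7.76 and 7.68 in control, 7.23, 7.22, 7.75 and 7.52 at day 2, and 7.26, 7.32, 7.45 and 7.22 at day 5. All WT day 2 samples lay below all WT controls, and the other lesioned groups overlapped with theirs. The difference was -0.51 (SE 0.15, adjusted p = 0.0342) at WT day 2, -0.38 (adjusted p = 0.115) at WT day 5, -0.16 (adjusted p = 0.594) at KO day 2 and -0.27 (adjusted p = 0.307) at KO day 5. The KO minus WT difference of the day 2 change was 0.35 (95% confidence interval -0.09 to 0.79) and did not pass (adjusted p = 0.9999). The WT day 2 call was lost without any 1 of the 4 WT control or 4 WT day 2 samples but WT control replicate 2, with values from -0.53 to -0.46. *Plk2* and *Btg2* are the 2 genes whose promoter windows above hold a CRE, and the part of this motif in their changes was not tested.

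*Trp53*, which encodes p53 itself, passed the test in no comparison with either probe. The brighter probe, chr11:69393959-69394017 (mm9), was 8.49, 8.91, 9.74 and 9.83 in WT control, 9.86, 9.69, 8.96 and 9.03 in WT day 2, and 8.86, 9.67, 8.86 and 9.90 in WT day 5. In KO it was 8.39, 9.72, 8.68 and 9.08 in control, 9.09, 9.13, 8.56 and 9.74 at day 2, and 8.71, 8.92, 8.96 and 9.13 at day 5. The 8 samples of slide 1 ranged from 8.39 to 8.96, those of slide 2 from 8.91 to 9.13 and those of slide 3 from 9.67 to 9.90, so the slides differed by more than the groups did. The intervals were wide, -0.58 to 0.86 for WT day 2 minus control and -0.64 to 0.8 for WT day 5 minus control. With slide as a block they narrowed to -0.16 to 0.26 (difference 0.05) and -0.04 to 0.38 (0.17) in WT and to -0.14 to 0.28 (0.07) and -0.07 to 0.36 (0.14) in KO, and no comparison passed.

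The dimmer *Trp53* probe, chr11:69403134-69403193 (mm9), was spotted 10 times per array and did not separate by slide, with medians of 6.92, 6.94 and 6.98 on the 3 slides. It was 6.62, 6.89, 6.91 and 6.83 in WT control, 7.08, 7.04, 6.88 and 6.94 in WT day 2, and 7.02, 7.01, 6.92 and 6.98 in WT day 5, and 6.73 to 6.99, 6.66 to 7.46 and 6.95 to 7.17 in the KO groups. The differences of 0.17 and 0.17 in WT and 0.18 and 0.15 in KO, each with an SE of 0.13, did not pass (adjusted p between 0.42 and 0.549), although all WT day 5 samples lay above all WT controls.

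**Figure D3:**
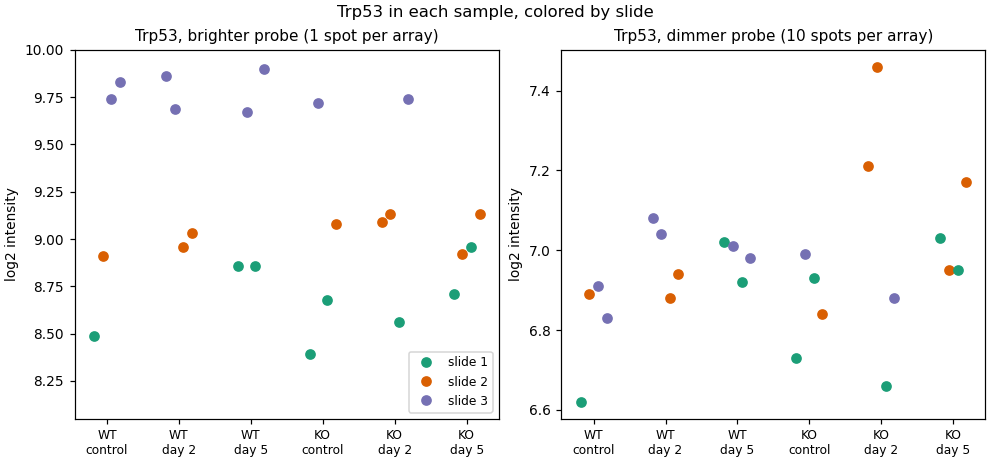
Log2 intensity of both *Trp53* probes (y axis) in each sample of the 6 groups (x axis), colored by slide. With the brighter probe (left) slide 3 lies above 9.67 and slides 1 and 2 below 9.13, and with the dimmer probe (right) the slides overlap.

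The comparison of KO with WT addressed whether loss of *Nfil3*, a transcriptional repressor of the bZIP family, alters these genes in control or lesioned DRGs. None of the 10 genes passed the test in control, at day 2 or at day 5 by limma, and none had an unadjusted p under 0.05 (smallest 0.0838, *Gadd45g* at day 5), while 0%, 0.0146% and 0.0109% of all genes passed and 1.69%, 3.81% and 2.38% had an unadjusted p under 0.05. For *Gadd45a* the KO minus WT difference was -0.09 (95% confidence interval -0.46 to 0.28) in control, 0.03 (-0.34 to 0.4) at day 2 and -0.09 (-0.46 to 0.28) at day 5. For *Cdkn1a* it was -0.07 (-0.45 to 0.32), -0.11 (-0.49 to 0.28) and -0.01 (-0.39 to 0.38). For *Gadd45g* it was -0.01 (-0.3 to 0.27), 0.08 (-0.2 to 0.37) and -0.25 (-0.53 to 0.04). *Ccng1* had the narrowest intervals, within -0.21 and 0.22 at all 3 time points, and *Trp53* the widest, down to -1.12 at day 5 (to -0.25 with slide as a block). The intervals of *Gadd45a*, *Gadd45g* and *Cdkn1a* lay within -0.53 and 0.4.

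The time*genotype interaction, which asks whether the lesion change differs between the genotypes, was called for none of the 10 genes, and none had an unadjusted p under 0.05. Of all genes, 0% were called and 2.13% had an unadjusted p under 0.05. The lesion change of *Gadd45a* in KO minus that in WT was 0.12 (95% confidence interval -0.4 to 0.64) at day 2 and -0.01 (-0.53 to 0.52) at day 5. That of *Cdkn1a* was -0.04 (-0.59 to 0.51) and 0.06 (-0.49 to 0.61).

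**Figure D4:**
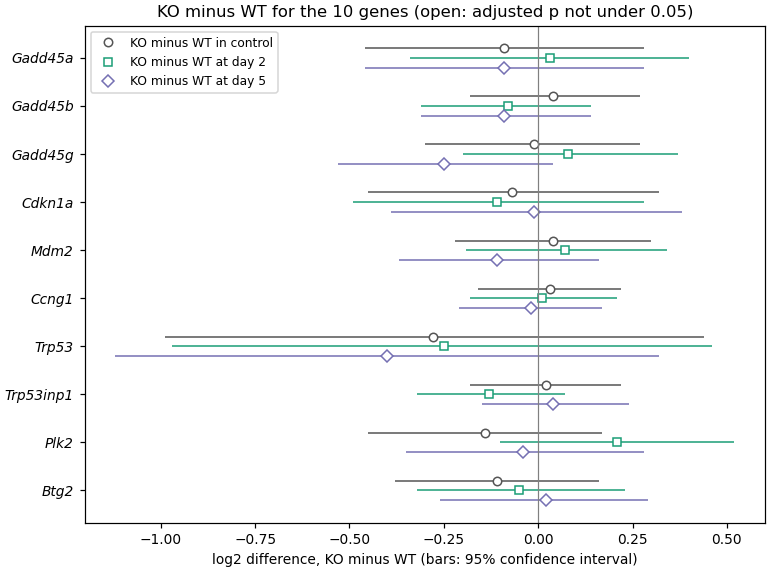
KO minus WT log2 difference (x axis) of the 10 genes in control (circles), at day 2 (squares) and at day 5 (diamonds), with 95% confidence intervals (bars). All 30 intervals include 0, and those of *Trp53* are the widest.

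Lists of related genes were set beside the share of genes called in either direction in the 4 comparisons (WT day 2, WT day 5, KO day 2 and KO day 5), which was 11%, 13.9%, 11.8% and 12.7% of all genes and 17.9%, 22.7%, 18.3% and 20.5% of the genes well above background in every sample. Of 38 other known p53 targets, 5 rose and 1 fell at WT day 2 and 11 rose and 3 fell at WT day 5, and in KO 6 rose and 2 fell at day 2 and 10 rose and 3 fell at day 5. These were 15.8% and 36.8% of the list in WT and 21.1% and 34.2% in KO, so that at WT day 2 the share lay between both shares of all genes. The median difference of the list was 0.11 and 0.15 in WT and 0.14 and 0.15 in KO, and 30 of the 38 were well above background in all samples. *Pmaip1*, which encodes the proapoptotic BH3-only protein NOXA, rose most, by 1.96 (adjusted p = 2.37e-08) and 2.23 (adjusted p = 2.58e-09) in WT and by 1.78 and 2.11 in KO (adjusted p = 8.68e-08 and 5.83e-09). *Gdf15*, a secreted stress cytokine, was 0.47 above control at WT day 2 (adjusted p = 0.0863) and rose by 0.99 at WT day 5 (adjusted p = 0.000357) and by 0.62 and 0.98 in KO (adjusted p = 0.0191 and 0.000425). *Dram1*, a lysosomal membrane protein of autophagy, rose by 0.96 and 0.88 in WT (adjusted p = 0.0346 and 0.0436). Its KO differences were 0.25 and 0.37 (adjusted p = 0.662 and 0.504), and it was well above background in only 20 samples. The lesion changes of *Dram1* in KO minus those in WT were -0.71 and -0.51, and neither passed. *Bax* and *Bbc3* (PUMA), which act in mitochondrial apoptosis and were named after their values were seen, passed the test at day 5 and not at day 2, rising by 0.4 and 0.48 in WT and 0.39 and 0.59 in KO. *Polk*, *Ddb2*, *Tigar* and *Cd82*, also named after their values were seen, were the targets that fell in 1 or more comparisons, by 0.33 to 0.49 on the log2 scale.

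**Figure D5:**
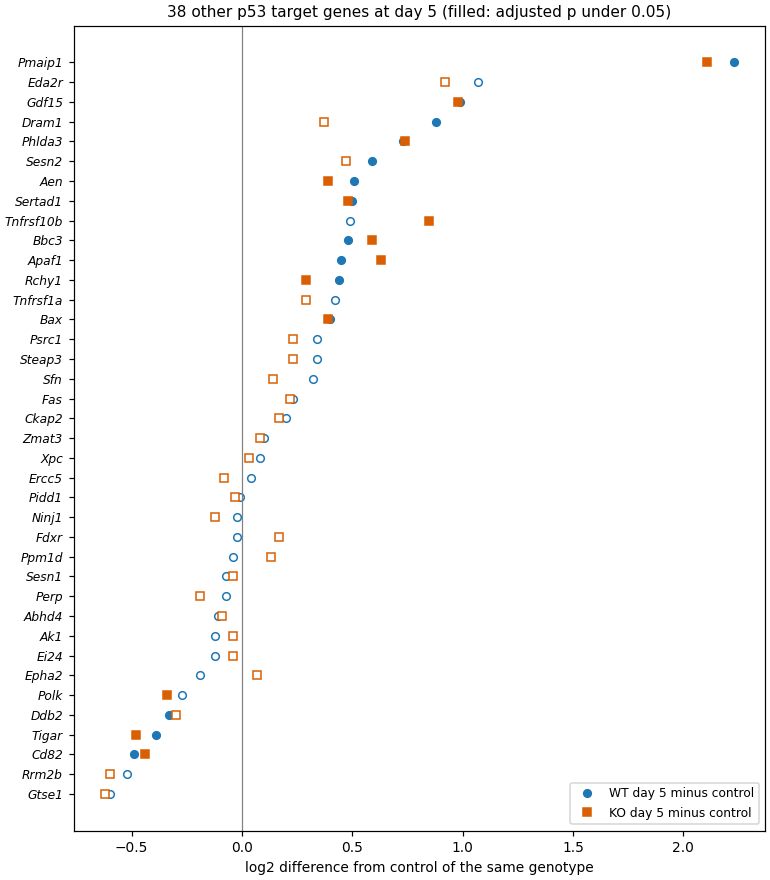
Log2 difference from control at day 5 (x axis) for the 38 other p53 target genes (y axis, ordered by the WT value), WT in blue circles and KO in orange squares, filled where the adjusted p was under 0.05. *Pmaip1* stands above 2 in both genotypes, 11 WT points are filled above 0 and 3 below.

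Among 23 regulators of p53, 3 rose at WT day 2, 2 rose and 1 fell at WT day 5, 2 rose and 3 fell at KO day 2, and 3 rose and 2 fell at KO day 5. The WT shares of 13% and 13% were near those of all genes. The KO shares of 21.7% and 21.7% were above those of all genes and near those of the genes well above background in every sample (18.3% and 20.5%). In each comparison 18 to 20 of the 23 did not pass. *Atr*, a kinase of the DNA damage response, fell by 0.82 at WT day 5 (adjusted p = 2.86e-05) and by 0.53 and 0.69 in KO (adjusted p = 0.00308 and 0.000202), and its WT day 2 difference was -0.34 (adjusted p = 0.0553). *Cdkn2a*, whose ARF product inhibits MDM2 but which was well above background in only 13 samples, rose by 0.95 and 0.85 in WT (adjusted p = 0.0154 and 0.0237), with 0.36 and 0.24 in KO (adjusted p = 0.41 and 0.645). *Ing1*, a chromatin-binding cofactor of p53, rose by 0.27 at WT day 5 (adjusted p = 0.0251) and by 0.27 and 0.33 in KO.

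Of 19 binding partners of GADD45 and genes of their pathways, 2 rose and 2 fell at WT day 2, 2 rose and 4 fell at WT day 5, 2 rose and 2 fell at KO day 2, and 2 rose and 3 fell at KO day 5. These were 21.1%, 31.6%, 21.1% and 26.3% of the list, and 13 to 15 of the 19 did not pass. Of the 19, 17 were well above background in all samples, and 17.9%, 22.7%, 18.3% and 20.5% of all such genes were called. The day 2 shares of the list were near these and are no result about the list. The day 5 shares were higher, but the list was chosen with earlier results known, so they are no test of it. *Mapk14*, the p38 alpha kinase, rose in all 4 comparisons, by 0.61 and 0.67 in WT (adjusted p = 0.00013 and 2.73e-05) and by 0.57 and 0.6 in KO. *Map2k6*, a kinase that activates p38, fell by 0.58 and 0.77 in WT (adjusted p = 0.00454 and 0.000251) and by 0.62 and 0.64 in KO (adjusted p = 0.0025 and 0.00178). *Tet3*, an enzyme of DNA demethylation, rose by 0.73 and 0.75 in WT (adjusted p = 0.00617 and 0.00379) and by 0.64 and 0.86 in KO.

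Of 13 other cyclins, cyclin-dependent kinases and their inhibitors, 1, 2, 0 and 2 rose at WT day 2, WT day 5, KO day 2 and KO day 5, and none fell, which at 7.69%, 15.4%, 0% and 15.4% is near the shares of all genes and is no result about the list. *Cdkn2b* (p15) rose by 0.7 at WT day 5 (adjusted p = 0.0138) and by 0.59 at KO day 5 (adjusted p = 0.0396), and *Cdk4* by 0.46 and 0.55 in WT (adjusted p = 0.0166 and 0.00388). Of 12 paralogs of the 10 genes, *Btg1*, the relative of *Btg2*, was the only one called, in each of the 4 comparisons (8.33% of the list), by 0.54 and 0.67 in WT (adjusted p = 0.00106 and 8.15e-05) and by 0.73 and 0.88 in KO (adjusted p = 4.57e-05 and 3.25e-06). In none of these lists did a gene differ between KO and WT in control, at day 2 or at day 5.

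Genes with the pattern most like *Gadd45a* over the 24 samples, among 14554 other genes well above background in all of them, were 2010002N04Rik (Pearson r = 0.993), *Flrt3* (0.993), which encodes an adhesion protein of axon guidance, and *Adam8* (0.992), a metalloprotease. For *Cdkn1a* they were *Ppp4r1* (0.989), a regulatory subunit of a phosphatase, *Csf1* (0.988), the growth factor of macrophages, and *Phlda1* (0.988). *Gadd45a* and *Gadd45g* had r = 0.99 with each other, and r = 0.97 and 0.98 with *Cdkn1a*. For these genes the samples fall into a control and a lesioned cluster and share arrays, so r describes likeness over all samples and not the relation within a group.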

How the data were processed

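RNA of 24 DRG samples was hybridised to 12 2-colour Agilent arrays with a different sample in each channel. The intensity values deposited by the authors were foreground, local background and processed signals per spot and channel from Feature Extraction, together with flags, before any normalization in limma. From these, the mean foreground of 43379 non-control spots (of 45018) was corrected for the median background by the Edwards method, quantile normalized on the log2 scale over all channels, cleared of outlier-marked spots and averaged per probe. Each channel was treated as 1 sample. Groups followed the sample titles, also for KO control replicate 4, whose day label says 5.

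Group means of the 41174 probes were modelled in limma 3.58.1 under R 4.3.3, with statmod 1.5.0 and the data.table package, version 1.17.8, with Benjamini-Hochberg adjustment and a threshold of 0.05. The scripts were tested on simulated data. Intensities carry no read depth, and the number of arrays limits the precision. No spot of the array was saturated. The genes and lists were chosen with earlier results of these data known. Named from each list were the 3 genes with the largest change at WT day 5 that passed there and were well above background in the brighter group, and from all genes the 3 most similar to *Gadd45a* and *Cdkn1a*. Other choices of background, normalization, filter, dye, slide, array and sample were tried as alternatives.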

Additional observations from a re-analysis of the deposited data

Results flagged for a closer look

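In WT day 2, *Ccng1* of replicate 1 was 10.19, with the next sample at 10.09, a gap of 0.833 of the range of the group. In KO control, *Btg2* of replicate 4 was 7.23, with the next sample at 6.83, a gap of 0.851 of the range. Both gaps exceed Dixon's 95% critical value for 4 samples, as 2 of the 60 groups tested did, and chance alone passes this value in about 5% of groups. *Ccng1* differed between the time points by the test of day 5 minus day 2 itself, by 0.5 in WT and by 0.47 in KO. These are values of its brighter probe, and each call was lost in some of the alternatives.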

How the results depend on the processing

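No called result for the 10 genes changed sign under any alternative. Differences that were not called did, most widely for *Trp53*, whose WT day 2 minus control difference was 1.07 with Cy3 and -0.79 with Cy5 samples alone and whose KO minus WT difference in control was 0.35 and -0.91. Day 5 minus day 2 called 1 gene in each genotype (*Ccng1*). It called 0 in WT when several probes were averaged for a gene, and 0 in both genotypes with KO control replicate 4 taken as KO day 5. That choice gave 6 for the F test and 4, 6, 4 and 4 in the 4 lesion comparisons. Leaving out 1 sample at a time gave 0 to 1 in WT (0 without WT day 5 replicate 1) and 0 to 1 in KO (0 without KO day 5 replicate 3), 6 to 8 for the F test, 4 to 6 at WT day 2, 6 to 8 at WT day 5, 4 at KO day 2 and 6 at KO day 5. Without the 4 controls hybridised together with a lesioned sample, an alternative chosen after seeing the data, the counts were 4, 5, 4 and 6 in the 4 lesion comparisons. *Gadd45a* and *Gadd45g* passed in all 4 under every alternative that gave a test, and *Cdkn1a* in all but KO day 2 with Cy5 samples alone (1.69, adjusted p = 0.0715).

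With replicate number as a block, 8 genes passed the F test, 6 and 8 in WT, 4 and 6 in KO, 1 for each day 5 minus day 2, and 0 for KO minus WT and the interaction. Deviations of samples with the same number correlated between -0.61 and 0.63 (median 0.06), so the numbers do not pair the samples. Those of samples that shared an array correlated between 0.04 and 0.65 (median 0.44), while the main tests treated these samples as independent. With array as a random block, 7 genes passed the F test, 6 and 7 in WT and 4 and 6 in KO. KO minus WT and the interaction again called 0.

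Over all genes, day 5 minus day 2 called 194 genes in WT and 267 in KO, against 385 and 466 without background correction, 367 and 446 with normexp, 304 and 417 with array as a random block, and 37 and 86 with KO control replicate 4 taken as day 5. The last choice also moved KO day 2 from 3225 to 1996 and KO day 5 from 3476 to 1116. Without the 4 controls the lesion comparisons called 1511 and 2092 genes in WT (3013 and 3798 with them) and 1688 and 1812 in KO. KO minus WT called 4 genes at day 2 and 3 at day 5, and 0 in some alternatives.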
